A study of Mus musculus with 28 samples.

Results

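The cerebellum of Ts1Cje mice at postnatal day 3 (P3) was set against that of euploid mice of the same age on 4 of the 28 arrays of the series. These 4 were chosen by their labels, which name P3 Ts1Cje cerebellum in one dye channel and P3 euploid cerebellum in the other. Ts1Cje is a mouse model of Down syndrome. Its distal part of chromosome 16 (Mmu16), from Sod1 to Zbtb21 (the former Znf295), is present in 3 copies, the extra one being translocated onto chromosome 12 (Mmu12), where a small segment that holds Dnah11, Sp4, Sp8, Abcb5 and Itgb8 is left in 1 copy. The segment is known to carry a neomycin cassette in Sod1, which marks the mice in genotyping. The euploid mice carry 2 copies of both segments. Both genotypes bear the strain label B6EiC3SnF1/J A/a, and the Ts1Cje mice descended from trisomic fathers and wild-type mothers on a mixed background. RNA came from single whole cerebella, so each array held 1 Ts1Cje and 1 euploid mouse, in all 4 mice of each genotype. The sample descriptions also speak of a dye swap, while the study counts a separate mouse for each channel of the 28 arrays (56 in all), and the arrays were taken here as separate pairs of mice. The series paired a male with a female on every array, and the labels do not say which was which. Of the other arrays, 12 compared the genotypes at P0, P7 or P10, and 8 held a P3 mouse beside a mouse of another age.

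In the first postnatal days the mouse cerebellum grows mainly in its external granule layer, where granule cell precursors divide under the influence of Sonic hedgehog (Shh) from Purkinje cells, while Bergmann glia, GABAergic interneurons and the first oligodendrocytes are laid down beneath it. A gene present in 3 copies instead of 2 would give a ratio of 1.5 if its transcript followed the dose, which is 0.58 on the log2 scale. All ratios here are log2 of Ts1Cje over euploid, so that a value above 0 means more transcript in the Ts1Cje mouse. They are differences and not levels, and in whole tissue fewer cells of a type and less RNA per cell cannot be told apart.

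The arrays gave 19389 to 23477 values of 25344 probes. After the probes of a gene were averaged, 20510 genes and unnamed probes (features) had a value on at least 3 of the 4 arrays and were tested. Array 2 had the fewest values, 76.5% of the probes against 87.2 to 92.6% on the other 3, and the widest ratios, with a median absolute deviation scaled to the standard deviation of 0.96 against 0.56 to 0.61. Ts1Cje was labelled with Cy3 on arrays 1 and 4 and with Cy5 on arrays 2 and 3. Over all features, arrays of the same labelling correlated at 0.09 (arrays 1 and 4, n = 19514) and 0.19 (arrays 2 and 3, n = 16857), whereas the pairs of opposite labelling correlated at -0.11 to -0.19. A constant dye effect cancels in the mean of a gene that has all 4 values, and does not where 1 is missing. Xist, the RNA of the inactive X chromosome, had ratios of 1.31, -3.78, 5.06 and -4.48 on arrays 1 to 4, high on 1 array of each labelling and low on 1 of each. As to the tissue, 32 of 38 defining markers of cerebellar and neighbouring cell types had a value on at least 3 arrays, among them all 4 of granule cell precursors and all 5 of Purkinje cells; neither choroid plexus marker (Ttr, Folr1) did, and of the 3 brainstem markers 1 did.

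The sequences just upstream of 4 genes that carry the account below are shown first. These are a selection of the genes from the segments of altered dose that had the same sign on all 4 arrays. Sod1 (chr16:90220512-90220761, plus strand) and Kcnj6 (chr16:94997697-94997946, minus strand) lie in the three-copy segment. Sp4 (chr12:118301441-118301690, minus strand) and Dnah11 (chr12:118199044-118199293, minus strand) lie in the segment of Mmu12 left in 1 copy. Each line gives the 250 bases before the RefSeq start of transcription on GRCm38.p6, 5′ to 3′ on the strand of the gene, with the GC box GGGCGG, the site of Sp-family factors such as Sp4, or its reverse complement CCGCCC in capitals.
Sod1: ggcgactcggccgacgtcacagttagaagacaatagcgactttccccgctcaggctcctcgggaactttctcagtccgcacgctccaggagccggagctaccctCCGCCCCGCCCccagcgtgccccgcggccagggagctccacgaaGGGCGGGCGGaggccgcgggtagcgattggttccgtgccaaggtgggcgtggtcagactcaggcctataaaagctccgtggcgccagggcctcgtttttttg
Kcnj6: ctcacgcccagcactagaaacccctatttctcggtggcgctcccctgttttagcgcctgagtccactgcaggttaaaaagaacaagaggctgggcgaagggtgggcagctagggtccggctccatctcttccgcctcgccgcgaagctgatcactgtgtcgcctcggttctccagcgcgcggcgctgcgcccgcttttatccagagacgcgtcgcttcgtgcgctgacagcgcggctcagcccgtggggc
Sp4: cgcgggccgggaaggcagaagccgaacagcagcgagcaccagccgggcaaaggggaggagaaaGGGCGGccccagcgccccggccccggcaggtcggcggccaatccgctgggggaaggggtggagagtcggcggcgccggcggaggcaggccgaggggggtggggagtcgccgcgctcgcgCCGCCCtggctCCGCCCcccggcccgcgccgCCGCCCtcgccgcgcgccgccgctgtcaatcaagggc
Dnah11: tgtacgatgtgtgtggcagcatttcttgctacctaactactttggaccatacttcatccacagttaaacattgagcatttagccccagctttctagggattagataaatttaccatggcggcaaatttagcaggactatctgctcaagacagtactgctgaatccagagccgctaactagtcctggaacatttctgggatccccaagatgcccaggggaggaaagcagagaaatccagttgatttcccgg
The letters of the GC box occurred 4 times each in the Sod1 and Sp4 windows, overlapping pairs counted separately, and not in those of Kcnj6 and Dnah11. Of 32851 mouse windows of the same length, 32.7% held it, and of 76 windows of 56 three-copy genes 43 did. For Kcnj6 the annotation gave 2 starts, and the window of the other start is not shown.

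No gene passed at P3. In limma's moderated fit of the 4 arrays, 0 of 20510 features reached an adjusted p below 0.05 (0% called), and the smallest adjusted p was 0.968. An unadjusted p below 0.05 was reached by 591 features, 2.88% of those tested, 267 of them higher (1.3%) and 324 lower (1.58%) in Ts1Cje cerebellum. The same sign on all 4 arrays was seen for 928 features above 0 (6.02%) and 893 below 0 (5.8%) of 15408 with 4 values. A fit with a dye term, which takes the difference between the labellings out of the residual spread, gave 966 features at an unadjusted p below 0.05 (4.71%) and again 0 after adjustment. The fitted ratios were centred, with a median of 0.00 and 50.4% above 0, and the median standard error (SE) of a feature was 0.33. Differences of the size of 1 extra gene copy were therefore within the error for a typical gene at this number of arrays.

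As a group the three-copy genes had ratios above 0 on these arrays, by less than their dose. On arrays 1 to 4 the mean ratio over the members was 0.10, 0.15, 0.21 and 0.30, or 0.19 ± 0.09 (SD, n = 4 arrays), which is a ratio of 1.14. All 4 arrays had a mean above 0, and all 4 were below 0.58. Array by array the median of the members was 0.13, -0.02, 0.16 and 0.29, so that on array 2 the positive mean came from a part of the genes. Of 70 names listed for the segment 65 had a probe, 63 were tested and 2 (Setd4, Clic6) had too few values; Cbr1, Hmgn1, Lca5l, Pcp4 and Scaf4 were not measured. Among the 63, 44 had a fitted ratio above 0, against 50.4% of all features, and their median was 0.17. Their mean fitted ratio of 0.19 was the highest of the chromosome groups compared: the 482 tested features of Mmu16 outside the segment had a mean of -0.01, and the other autosomes and the X chromosome had means of -0.05 to 0.04. These other groups held 426 to 1458 tested features each, so that a mean over 63 genes can vary more than theirs. A list of 25 tested genes of proximal Mmu16, which has 2 copies, had a median of 0.15 and followed array 2, where its median was 0.46, against -0.11, -0.03 and 0.11 on arrays 1, 3 and 4.

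**Figure D1:**
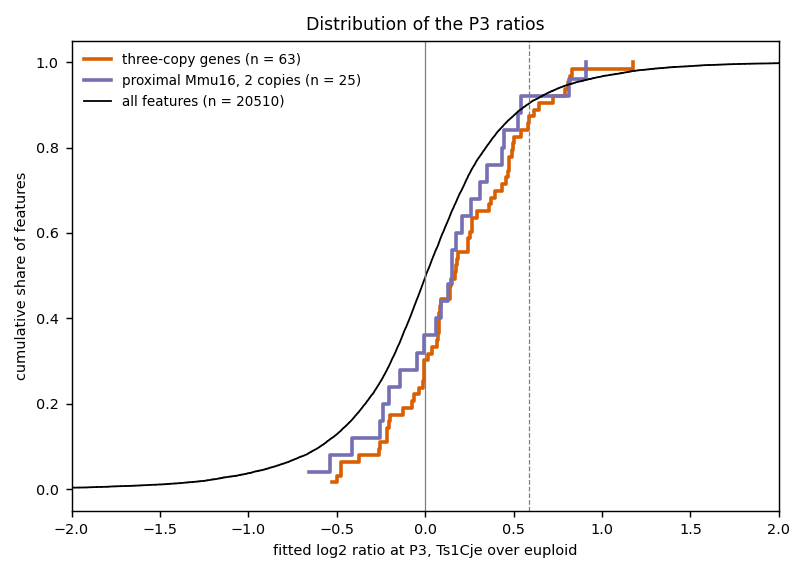
Cumulative share of features (vertical axis) against the fitted log2 ratio at P3 (horizontal axis) for the 63 three-copy genes tested, 25 genes of proximal Mmu16 in 2 copies and all 20510 features; the dashed line is the ratio of 3 to 2 copies, 0.58. Up to a ratio of 0.58 the curve of the three-copy genes lies to the right of that of all features, and close to that of proximal Mmu16, with a median of 0.17 against 0.00.

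For single three-copy genes the error was wider than the dose. The 95% interval held both 0 and 0.58 for 53 of the 63, 0 for 62 and 0.58 for 54, and lay wholly below 0.58 for 9. Only Sod1 reached an unadjusted p below 0.05 in the direction of the dose and none did against it, that is 1 of 63 beside 1.3% of all features. Sod1, the cytosolic superoxide dismutase, is where the extra segment carries the neomycin cassette. A probe ratio does not show whether the transcript of that copy is whole. Sod1 had ratios of 0.89, 0.81, 0.09 and 0.66 on arrays 1 to 4. The ratio was above 0 on all 4 arrays but close to 0 on array 3, and the fit gave 0.61 ± 0.24 (SE, unadjusted p = 0.0493, limma adjusted p = 0.968). In the same group of defence, mitochondria and metabolism, Atp5o, the stalk subunit of ATP synthase, had 0.70, -0.10, 0.40 and 0.59, and 7 of the 11 members tested were above 0 with a median of 0.17.

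**Figure D2:**
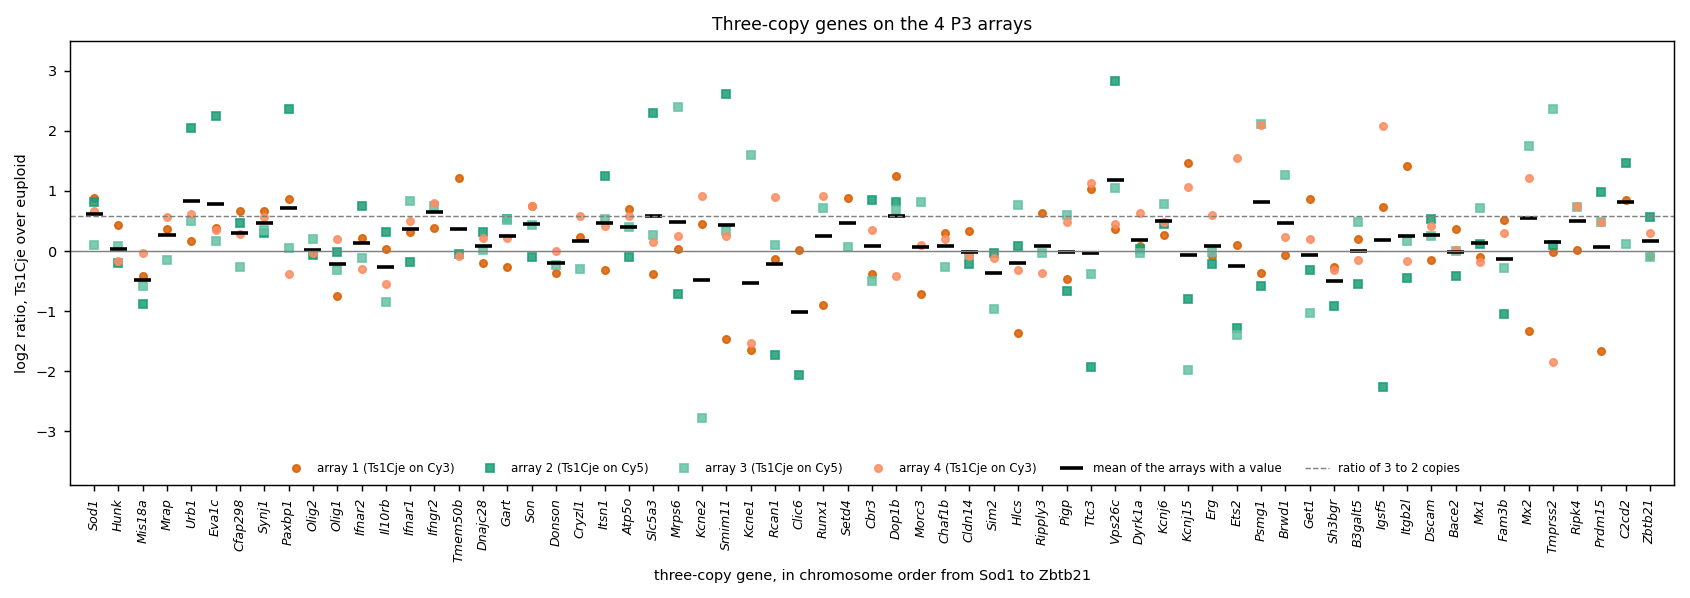
Log2 ratio of Ts1Cje over euploid (vertical axis) of each measured three-copy gene, in chromosome order from Sod1 to Zbtb21, on the 4 P3 arrays (circles, Ts1Cje on Cy3; squares, Ts1Cje on Cy5), with the mean of the arrays as a bar and the ratio of 3 to 2 copies as a dashed line. Array 2 (dark squares) holds many of the extreme values, and the 4 values of most genes lie on both sides of 0.

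Genes of membranes, trafficking and adhesion had 13 of 17 members above 0 and a median of 0.26. Synj1, the phosphatase that uncoats synaptic vesicles, had 0.66, 0.29, 0.34 and 0.57 and had the narrowest range of the 6 three-copy genes above 0 on every array (0.47 ± 0.21 SE, unadjusted p = 0.0729). Vps26c, a subunit of the retriever complex of endosomes, had 0.36, 2.83, 1.05 and 0.45, and Eva1c, a receptor of axon guidance cues, had 0.38, 2.25, 0.16 and 0.36. In both genes array 2 was the highest by far, and Vps26c was the highest fitted value of the segment (1.17 ± 0.48 SE). Itsn1, a scaffold of endocytosis, had -0.31, 1.25, 0.54 and 0.41. Dscam, a cell adhesion molecule of neurites, had -0.15, 0.54, 0.25 and 0.41, below 0 on array 1 and above 0 on the others.

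The channels did not share a direction. Kcnj6, which encodes the potassium channel subunit Girk2 of granule cells, had 0.27, 0.46, 0.78 and 0.49 (0.50 ± 0.21 SE, unadjusted p = 0.0637). It was above 0 on all 4 arrays, while Kcnj15 had 1.47, -0.79, -1.99 and 1.07, with its sign following the labelling. Kcne1 had -1.64, 1.60 and -1.53 and Kcne2 0.44, -2.78 and 0.91 on arrays 1, 3 and 4, and no value on array 2.

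Among interferon receptors and effectors, 5 of 6 were above 0 with a median of 0.26. In the 24 other arrays 3 of the 6 were above 0, with a median of -0.007. Ifngr2, a chain of the interferon gamma receptor, had 0.39, 0.74 and 0.80 on the 3 arrays with a value (0.64 ± 0.27 SE, unadjusted p = 0.0718). Ifnar1, a chain of the type I interferon receptor, had 0.32, -0.18, 0.84 and 0.50, and Il10rb, a chain shared by cytokine receptors, had 0.03, 0.32, -0.84 and -0.55. The interferon response genes outside the segment had a median of -0.18 over 24 members tested, 10 of them above 0. Their array medians were -0.01, 0.07, -0.09 and -0.13, and the list median was -0.02 without array 2, -0.06 with the arrays scaled to the same spread and 0.02 in the 24 other arrays, where 12 of 24 were above 0.

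Of the 6 genes of signalling and protein turnover, 4 were above 0. Dyrk1a, a kinase much studied in Down syndrome, had 0.08, 0.03, -0.03 and 0.64, so that on 3 arrays it was within 0.08 of 0 (fit 0.18 ± 0.23 SE). Rcan1, an inhibitor of calcineurin, had -0.13, -1.73, 0.10 and 0.89, on both sides of 0. Psmg1, a proteasome assembly chaperone, had -0.36, -0.58, 2.11 and 2.10. The transcription factors had a median of 0.02. Olig1 and Olig2, factors of the oligodendrocyte lineage, were at -0.75, -0.02, -0.31 and 0.20 and at -0.04, -0.06, 0.21 and -0.04, and Olig2 was the three-copy gene with the narrowest spread in this group, at 0.02 ± 0.20 (SE).

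Genes of RNA, chromatin and replication had 10 of 12 members above 0 and a median of 0.13. The array medians were -0.07, 0.77, 0.06 and 0.21, array 2 being high, and in the 24 other arrays 4 of 12 were above 0 with a median of -0.22. Son, a splicing cofactor, had 0.75, -0.10, 0.43 and 0.74. Urb1, a ribosome biogenesis factor, had 0.16, 2.05, 0.50 and 0.62, above 0 on all arrays with array 2 high. Mis18a, a factor that licenses centromeres, had -0.42, -0.87, -0.58 and -0.03 (-0.48 ± 0.24 SE, unadjusted p = 0.0994). Of the 45 three-copy genes with 4 values it was the only one below 0 on all 4 arrays, against 6 above 0 on all 4 (Sod1, Kcnj6, Synj1, Vps26c, Urb1 and Eva1c). Over all features with 4 values, 5.8% were below 0 and 6.02% above 0 on every array. A further 9 transcripts that RefSeq places in the segment were measured; 3 of the 8 tested were above 0, and 1700029J03Rik had -1.78, -1.67 and -0.88 on 3 arrays (-1.44 ± 0.32 SE, unadjusted p = 0.00972).

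The genes of the Mmu12 segment left in 1 copy did not follow their dose together. Dnah11, an axonemal dynein heavy chain, had 2.79, 0.31, 1.10 and 2.52 on arrays 1 to 4, above 0 on all of them, with a fit of 1.68 ± 0.49 (SE, unadjusted p = 0.0176, adjusted p = 0.968). The study had already reported Dnah11 as raised at every age, from a model that included these arrays. Sp4, a GC box factor of neurons, was below 0 on all 4 arrays at -0.74, -0.32, -0.54 and -0.30 (-0.48 ± 0.21 SE, unadjusted p = 0.0734). Its family member Sp8 had -0.40, -1.34, -0.53 and 1.17. Abcb5, a membrane transporter, had -0.15, -5.07 and -0.94 on arrays 1, 3 and 4, a mean set by array 3. Itgb8, an integrin chain, had 0.33 and -2.61 on arrays 1 and 2 and no value on the others. Beside the breakpoint, Cdca7l, a partner of Myc, had 0.26, 1.88, 0.84 and 1.48 (1.12 ± 0.34 SE, unadjusted p = 0.0199). The study reported Cdca7l and Sp4 as lowered in the dissected external granule layer of Ts1Cje mice at P0, on another array platform. For Cdca7l the direction here was the opposite. Ncapg2, a condensin subunit, had -0.71, -0.13, 0.59 and 0.02. Ptprn2, a protein of secretory granules, had 0.37, -0.02, -0.04 and 0.96. Vipr2, a neuropeptide receptor, had -0.94 and -3.06 on arrays 2 and 3 only.

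A list of 13 genes that the study called altered at every stage had 11 measured here. All 11 were above 0 at P3, with a median of 0.46, but the study chose the list on these same arrays, so that its direction is not independent evidence. Its members described above are Dnah11 and the three-copy genes Sod1, Kcnj6, Ifngr2, Atp5o and Son. Its members in 2 copies included Marchf1, a ubiquitin ligase of antigen-presenting cells, at 0.69, 0.22, 0.18 and 0.33; Bpifb6, a lipid-binding protein, at 0.16, 0.58, 0.58 and 0.52; Hsfy2 at 0.20, 0.65 and 0.35 on arrays 1, 3 and 4; the vomeronasal receptor Vmn1r216 at 0.72, 0.84, -0.08 and 0.45; and Phtf1 at 0.55, 0.41, -0.21 and 0.27. Arrays 2 and 3 held the values below 0 in this list.

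Outside the segments of altered dose, the genes with the smallest p among those of 1 sign on all 4 arrays are described by their values only, since a small p and a shared sign select for ratios that lie close together. None passed after adjustment (adjusted p = 0.968 for all 20 named). Lrrk2, a kinase mutated in familial Parkinson disease, headed the higher ones with 1.57, 1.74, 0.88 and 0.96 (1.29 ± 0.26 SE, unadjusted p = 0.0037). C3ar1, the receptor of complement C3a, had 0.86, 0.96, 1.06 and 1.60. Ikzf3, a zinc finger factor of lymphocytes, had 1.11, 1.09, 0.69 and 1.67. H2-Aa, an MHC class II chain, had 0.77, 0.99, 0.81 and 0.61. All 3 of these act in immune cells. Klra2, Tyk2 and P2ry13, named below with parts in natural killer cells, cytokine receptors and microglia, were below 0 on all 4 arrays. Their fits were -1.69, -1.24 and -2.25. Of the microglia markers 11 of 14 tested were above 0, with a median of 0.23 and array medians of -0.11, 0.15, 0.15 and 0.20, against 7 of 14 and a median of -0.07 in the 24 other arrays. Over members with a value on all 4 arrays the list median was 0.05. Csf1r had 0.42, 0.32, 0.15 and -0.79 and Cx3cr1 -0.20, -0.25, 0.52 and 0.14. The part of microglia in the immune genes was not tested. Plin2, the coat protein of lipid droplets, had 0.79, 0.995, 1.32 and 0.69, and Osgin1, a gene of the oxidative stress response, had 1.12, 1.14, 0.51 and 0.78. Dnaaf4, an assembly factor of ciliary dynein arms, had 0.92, 1.31, 1.27 and 0.63. Styxl1, a phosphatase relative without catalytic activity, had 0.81, 1.31, 0.71 and 0.97, and Tusc1, a tumour suppressor candidate, 0.43, 1.77, 2.12 and 2.91. The uncharacterised F830045P16Rik completed the 10, whose fitted values ran from 0.80 to 1.81.

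Among the lower genes Klra2, a receptor of the Ly49 family of natural killer cells, had the smallest p, with -1.39, -2.36, -1.60 and -1.40 (-1.69 ± 0.26 SE, unadjusted p = 0.0012). Cyp7b1, the hydroxylase of oxysterols and neurosteroids, had -1.95, -1.53, -2.16 and -0.95 (-1.65 ± 0.28 SE, unadjusted p = 0.00187). Tyk2, a Janus kinase of cytokine receptors, had -1.69, -1.13, -1.23 and -0.91. Elovl5, an elongase of polyunsaturated fatty acids, had -0.93, -1.30, -0.82 and -0.82. Marchf8, a ubiquitin ligase of membrane proteins, had -1.26, -1.04, -0.67 and -1.19. Slc26a8, an anion transporter of sperm, had -1.62, -1.24, -1.14 and -0.72. The olfactory receptor Olfr633, the X-linked testis gene Tcp11x2 and the transcripts 4930414F18Rik and 1700001O22Rik made up the 10, with fitted values from -0.97 to -1.69 overall. Klra2, H2-Aa and Olfr633 belong to families of closely similar genes, and their probes may not tell the members apart.

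**Figure D3:**
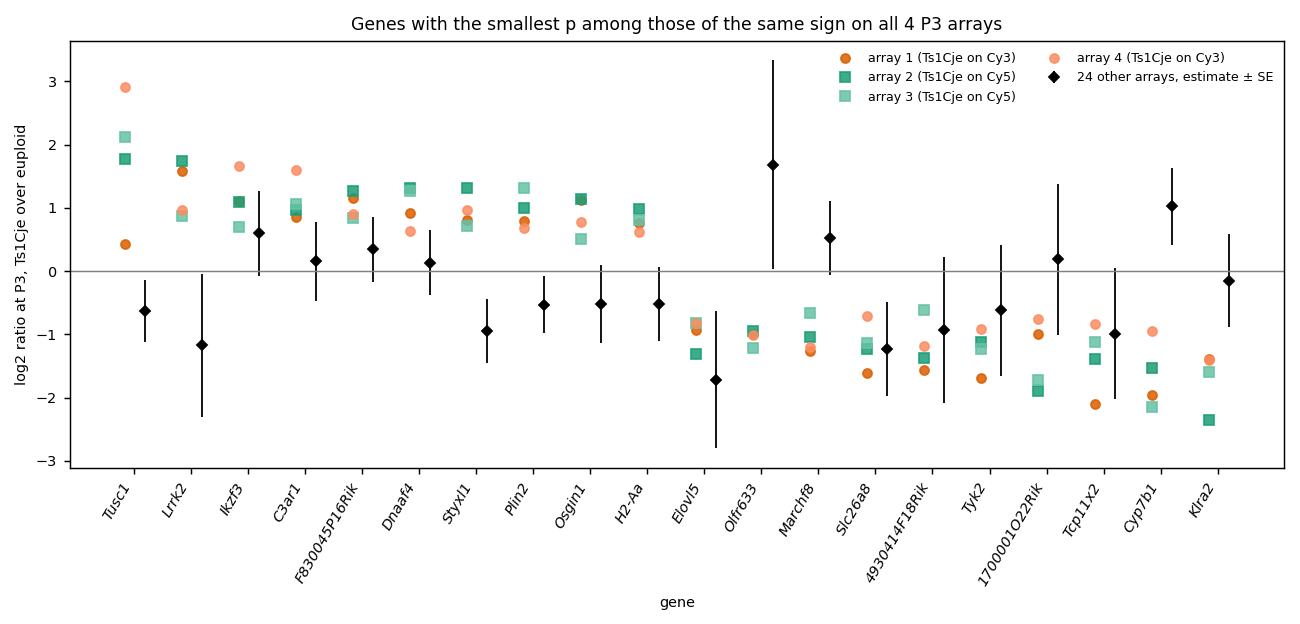
Log2 ratio at P3 (vertical axis) of the 10 higher and 10 lower genes named by smallest p (horizontal axis) on the 4 P3 arrays (coloured) and as estimated from the 24 other arrays (black diamonds, ± SE). The 4 arrays lie together by choice; the diamonds fall on the same side of 0 for 10 of the 20 genes.

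By size of the ratio, the genes of 1 sign were led by Nefh, the heavy neurofilament chain, at 2.39, 6.84, 3.22 and 0.76, Apol9b, an interferon-inducible apolipoprotein, at 1.29, 6.43, 1.39 and 1.50, and Edn3, an endothelin, at 0.24, 0.91, 7.50 and 0.48. The lower ones were Ttc30a1, a factor of intraflagellar transport, at -3.19, -2.44, -1.25 and -5.80, P2ry13, a purine receptor of microglia, at -1.57, -0.62, -1.09 and -5.71, and Celf5, an RNA-binding protein, at -1.97, -0.03, -6.08 and -0.81. In 5 of the 6, all but Ttc30a1, 1 array exceeded the next by more than 3 on the log2 scale.

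No marker of a cell type passed after adjustment. The medians of the 12 lists lay between -0.14 and 0.24, and of 184 members tested 2 reached an unadjusted p below 0.05 above 0 and 1 below, together 1.63% against 2.88% of all features. Granule cell precursors had a median of -0.02 over 17 members, with 6 above 0. Atoh1, their master regulator, had 0.22, -0.45, 0.34 and -0.28, on both sides of 0. Granule neurons had a median of -0.14 over 20 members and array medians of -0.04, 0.09, -0.04 and 0.06. Without array 2 the list median was -0.05, with the arrays scaled to the same spread -0.03, and over members with a value on all 4 arrays 0.03. Neurod1 stood at 0.04, 0.12, -0.16 and 0.26, and Sema6a, a guidance cue of migrating granule cells, at 0.55, 3.42, 0.87 and 1.40 (unadjusted p = 0.0305). Purkinje cells had a median of 0.07, with Calb1 at 0.08, -0.03, 0.03 and -0.18; Dab1, the adaptor of reelin signalling, had 0.51, 1.49, 1.64 and 0.38 (1.01 ± 0.32 SE, unadjusted p = 0.0236). GABAergic interneurons had a median of 0.10, the only list of these with a median above 0 on each array (0.06, 0.32, 0.28 and 0.13). In the 24 other arrays 6 of its 14 members were above 0, with a median of -0.06. Ptf1a, the progenitor factor of these interneurons, was at -0.82, -0.80 and -1.92 on the 3 arrays with a value (-1.18 ± 0.36 SE, unadjusted p = 0.0289). Astrocytes and Bergmann glia, oligodendrocytes and endothelium had medians of 0.06, 0.00 and 0.01. The lists that could mark other tissue or cells were mostly above 0. Erythroid cells had 5 of 8 above 0 (median 0.24), meninges 13 of 15 (0.18), brainstem 12 of 16 (0.17) and choroid plexus 4 of 6 (0.10), beside the 11 of 14 microglia markers (0.23). The medians of microglia, erythroid cells and meninges were thus above the three-copy median of 0.17, and the part of these cells in the three-copy ratios was not tested. In the 24 other arrays the medians of the members tested at P3 were -0.12 for erythroid cells, 0.36 for meninges, -0.04 for brainstem and 0.21 for choroid plexus. Each of these 5 had at least 1 array with a median below 0. Of all features 50.4% were above 0. Without 1 array the medians, over the members then tested, were -0.14 to 0.01 for choroid plexus and -0.004 to 0.40 for erythroid cells. They were 0.02 to 0.25 for meninges, 0.09 to 0.33 for brainstem and 0.13 to 0.29 for microglia.

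The lists of pathways had medians of -0.18 to 0.18 over 10 lists and 3 higher and 2 lower members of 307 at an unadjusted p below 0.05 (1.63%). The cell cycle list had 20 of 36 members above 0 and a median of 0.04, yet its array medians were -0.03, -0.15, -0.01 and -0.14. Mki67, the proliferation marker, had 0.06, 0.67, 0.71 and 0.20, above 0 on all 4 arrays (unadjusted p = 0.138), while Ccne2, Mcm6, Pcna, Plk1 and Top2a were below 0 on all 4, with fits of -0.58 to -0.19. These 5 of the 26 members with 4 values stand beside 5.8% of all features, and Mki67 beside 6.02%. In the 24 other arrays 23 of the 36 list members were above 0, with a median of 0.11. Cdc6, a loader of the replicative helicase, had -0.03, 1.13, 1.69 and 0.999 (0.95 ± 0.34 SE, unadjusted p = 0.0358). The Shh pathway had a median of 0.18 and 12 of 16 above 0, carried by array 2 at 0.54 against 0.10, -0.08 and -0.05 on arrays 1, 3 and 4; its target Ptch1 had 0.44, 0.79, -0.25 and -0.30. The Notch pathway had a median of 0.09. Calcineurin and NFAT genes had a median of -0.02, and Nfatc2, a factor moved to the nucleus by calcineurin, had 1.16, 0.29, 0.53 and 0.69 (0.67 ± 0.24 SE, unadjusted p = 0.0382). Oxidative stress defence, the respiratory chain, ribosomal proteins and synapse genes had medians of 0.02, -0.01, -0.06 and 0.03, with 0 of 166 members at an unadjusted p below 0.05. Of the immediate-early and stress genes Junb was at -1.23, -0.92, -1.10 and -0.63 (-0.97 ± 0.22 SE, unadjusted p = 0.00653) and Atf3 at 0.57, 0.66 and 0.93 (unadjusted p = 0.0498), and the list median was -0.14.

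**Figure D4:**
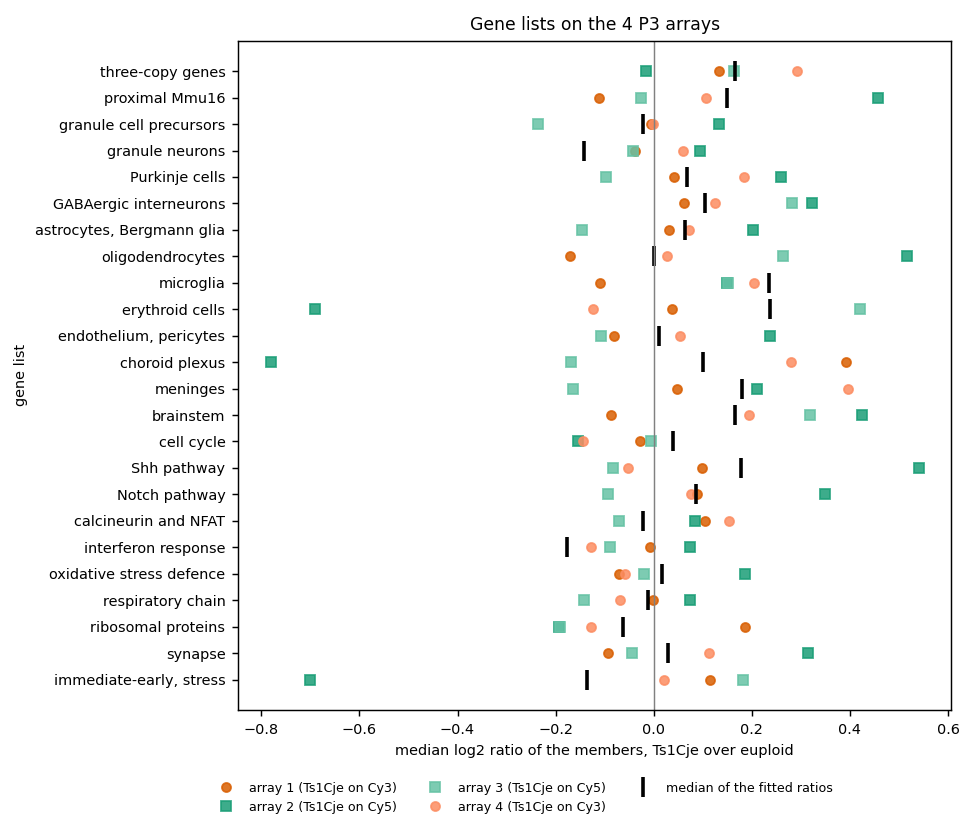
Median log2 ratio of the members of each gene list (vertical axis) on the 4 P3 arrays (coloured) and over the fitted ratios (black bars). The fitted medians lie within 0.24 of 0, and array 2 lies farthest from 0 in 16 of the 22 lists of cell types and pathways.

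The same genotype difference at P3 can be estimated in other mice, from the 24 arrays that share no animal with these 4, of which 8 held a P3 mouse beside one of another age. The estimate is indirect, and its median SE of 0.60 was larger. In that fit 0 of 22142 features passed (0%), and 1026 reached an unadjusted p below 0.05 (4.63%). Across 20411 features the estimates from the 4 arrays and from the other mice correlated at 0.015 (Pearson; Spearman -0.001), as a description across features, which are not independent. Of the 584 features at an unadjusted p below 0.05 on the 4 arrays, 304 had the same sign in the other mice (52.1%, against 49.8% of all features). The 20 genes named by smallest p had the same sign for 10, and none of the 20 had an unadjusted p below 0.05 there. Of the lower ones, Slc26a8 had -1.23 ± 0.74, Elovl5 -1.72 ± 1.08, Tcp11x2 -0.99 ± 1.03 and Tyk2 -0.62 ± 1.04 (SE) in the other mice, the same sign with wide errors, while Cyp7b1 had 1.02 ± 0.61. Of the higher ones, Lrrk2, Styxl1, Plin2, Tusc1, Osgin1 and H2-Aa had the opposite sign, between -1.17 and -0.52. Cdc6 and Dab1 were at -0.88 ± 0.36 and -1.22 ± 0.72 (SE), opposite to the 4 arrays.

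The three-copy genes were above 0 as a group in the other mice too, at a mean of 0.09 with 42 of the 65 estimated above 0. Single members did not keep their order: 29 of 63 had the same sign in both sets, and their estimates correlated at 0.019 (Pearson, across genes). Sod1, Kcnj6, Synj1 and Ifngr2 had 0.35 ± 0.50, 0.51 ± 0.46, 0.28 ± 0.37 and 0.44 ± 0.38 (SE) there. All were above 0, with errors about as large as the values. Sod1, Kcnj6 and Ifngr2 are on the study's list of genes altered at every stage. That list was chosen on all 28 arrays, so their sign in the other mice is not independent evidence. Synj1 was named after its ratios were seen. In the fit over all 28 arrays, which joins both sources, 8 of 65 reached an unadjusted p below 0.05 above 0 (Ifngr2, Itsn1, Vps26c, Psmg1, Synj1, Kcnj6, Sod1 and Atp5o), against 2.94% of all features in that direction, and 0 did below 0; in either direction 5.62% of all features did. The fold differences of Sod1 and Kcnj6 in that fit were 1.45 and 1.42, near the ratio of copies. Over all 65 members the mean log2 ratio in that fit was 0.15 and the median 0.11, well below the ratio of copies. No three-copy gene passed adjustment. Dnah11, which is on the study's list too, and Cdca7l had 1.09 ± 0.69 and 0.63 ± 0.64 (SE) in the other mice, and Sp4 had -0.30 ± 0.61.

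Whether the difference at P3 stood apart from that at the other ages was tested on the 16 arrays whose mice had the same age. The three-copy mean at P3 lay within the spread of the other ages: it was 0.18 ± 0.02 at P0, 0.19 ± 0.09 at P3, 0.17 ± 0.14 at P7 and 0.13 ± 0.08 at P10 (SD, n = 4 arrays each). Among 63 three-copy genes Vps26c was above the other ages at P3 by 1.01 and Olig1 below them, at -0.60, at an unadjusted p below 0.05, and none passed. For Olig1 the means were 0.56 at P0, -0.22 at P3, 0.32 at P7 and 0.27 at P10.

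Of 19917 features tested, 1 passed, the transcript 4833411C07Rik of Mmu8, which is 0.00502%, and 1140 (5.72%) had an unadjusted p below 0.05. 4833411C07Rik had ratios of -3.16, -2.43 and -4.91 at P3, on arrays 1, 3 and 4, with no value on array 2. At P0 it had 0.46, 0.50, 0.49 and 0.33, at P7 -0.30, 0.04 and 0.24, and at P10 0.32, 0.48 and 0.48, so that the P3 arrays did not overlap those of any other age. P3 differed from the mean of the other ages by -3.79 ± 0.40 (SE, limma adjusted p = 0.0176). That fit takes 1 variance for all ages, whereas the P3 values were spread far more widely than those of the other ages. The SE and adjusted p may therefore understate the error of the P3 mean. Without array 1 the difference was -3.96 and did not pass (adjusted p = 0.0612), nor did it with the arrays scaled to the same spread (adjusted p = 0.0786). On the 4 arrays alone the fit was -3.50 ± 0.57 (SE, adjusted p = 0.968), in the other mice -1.13 ± 0.41 (SE, unadjusted p = 0.0136, adjusted p = 0.951), and over all 28 arrays -2.68 (adjusted p = 0.0245), the only call at P3 in that fit (1 of 22314, 0.00448%). What the transcript encodes is not annotated in the sources used here.

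Next in the same contrast came Klra2, 4930563E22Rik, Tspear and Slc6a19, none of which passed (adjusted p = 0.159, 0.159, 0.296 and 0.311). For Klra2 the difference of P3 from the other ages was -2.05, with means of 0.35 at P0, -1.69 at P3, 0.03 at P7 and 0.71 at P10. Tspear, a gene of hair follicle and tooth, had -0.67, -0.72, -1.78 and -1.27 on the P3 arrays, and was also below 0 in the other mice (-1.26 ± 0.42 SE, unadjusted p = 0.00766, adjusted p = 0.86). Slc6a19, a transporter of neutral amino acids, had -1.72, -3.07 and -2.64 on arrays 1 to 3, and 4930563E22Rik had -2.25, -1.55 and -2.08 on arrays 1, 3 and 4; in the other mice both were near 0, at 0.25 ± 0.52 and 0.24 ± 0.53 (SE).

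**Figure D5:**
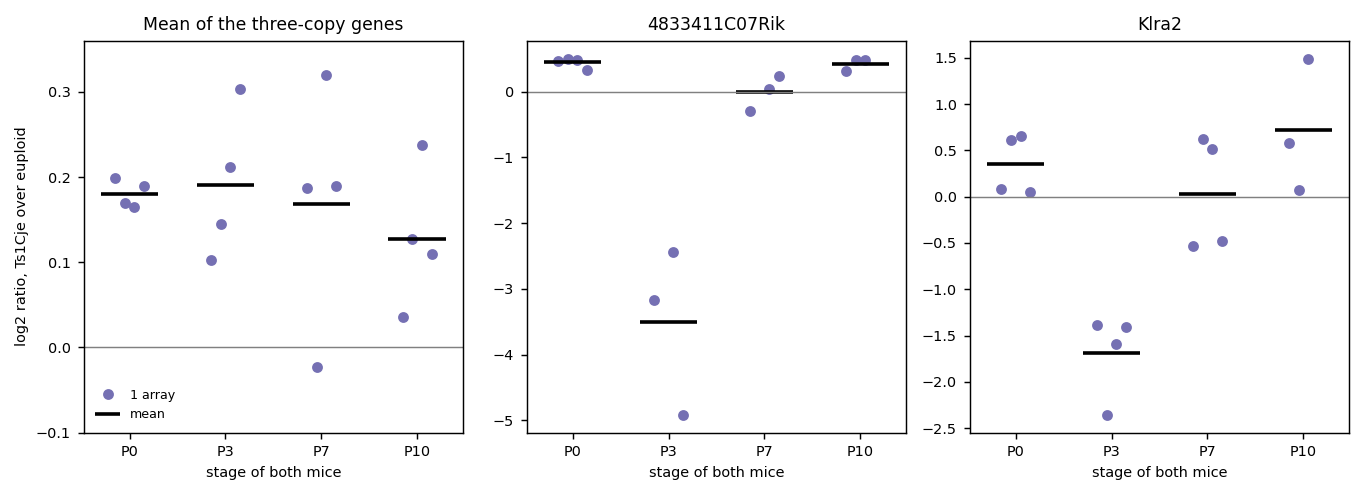
Log2 ratio of Ts1Cje over euploid (vertical axes) on the arrays whose mice had the same age, at P0, P3, P7 and P10 (horizontal axes), for the mean of the three-copy genes, for 4833411C07Rik and for Klra2; points are arrays and bars their means. The three-copy mean lies at 0.13 to 0.19 at every age, whereas the other 2 lie below 0 on every P3 array with a value.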

How the data were processed

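RNA of single cerebella was hybridised in pairs to 2-colour spotted arrays. What the authors deposited is the log2 of the Cy5 to Cy3 ratio of each probe, taken from background-subtracted median pixel intensities without control, irregular and dim spots and LOWESS-normalized array by array; dropped spots are missing values here, and no normalization between arrays was stated. Ratios were turned to Ts1Cje over euploid by the dyes in the labels. Of 25344 probes 20626 had 1 gene symbol and 4718 none, and 257 control spots were left out. Probes of a gene were averaged per array, giving 23219 features, of which 1667 came from more than 1 probe. Annotation and coordinates came from RefSeq tables (GRCm38.p6), and the platform annotation given can be old.

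A mean over the 4 P3 arrays was fitted with limma 3.58.1 under R 4.3.3 (moderated variances, prior degrees of freedom 2.17, Benjamini-Hochberg adjustment over all 20510 features with a value on at least 3 arrays, threshold 0.05). The other mice were fitted with the 7 parameters of the study's model (age and genotype by age) over 24 arrays, and the ages were compared over 16 arrays. The script was tested on simulated data with known differences. The number of arrays limits the precision. The study identified its mice by litter, but the labels used here do not, so litter was no term in any fit, and p-values reflect only the variation among these samples, part of which may be technical. The label of the stage was contradictory for 1 of the other arrays, which was taken as P7.

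The genes named were, among those with a symbol, the 10 in each direction with the smallest p and the 3 with the largest mean ratio that had 1 sign on all 4 arrays, three-copy and list members at an unadjusted p below 0.05, the Mmu12 genes, the study's list of genes altered at every stage, the 5 genes with the smallest p between ages, calls in the other fits, and up to 2 defining members per list. Other three-copy genes, genes of 1 sign on all arrays within a list and 1700029J03Rik were named after their values were seen. Members and lists were chosen with earlier results of these data known. Three-copy genes were removed from the cell type and pathway lists. The alternatives were leaving out each array, scaling or centring the arrays, other minimum numbers of values, other ways to join probes, a dye term, array weights, Xist as a covariate, robust moderation and the fits over 28 and 24 arrays; 2 definitions of the three-copy list were added after seeing the data. Tables were made in Python 3.11.15 with pandas 2.3.3, and figures with matplotlib 3.10.9.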

Additional observations from a re-analysis of the deposited data

Results flagged for a closer look

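Of 75 results looked at over the 4 P3 arrays, 46 named genes with 4 values and 29 gene lists, 5 had 1 array far from the other 3 by Dixon's criterion, which flags about 1 group in 20 by chance. The 5 of 75 are near that rate. It holds only for groups not chosen by their values, and many of the named genes were chosen so. Apol9b stood at 6.43 on array 2, against 1.29 to 1.50 on the others, and Edn3 at 7.50 on array 3, against 0.24 to 0.91. Bpifb6 was lowest on array 1, at 0.16, with 0.52 to 0.58 on the other arrays. Array 2 gave the highest list mean of proximal Mmu16, 0.64, and of the respiratory chain, 0.25. It thus held 3 of the 5, and it also had the fewest values and the widest ratios; the part of these in the outlying values was not tested.

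The transcript 4833411C07Rik differed between ages, with a log2 difference of P3 from the mean of P0, P7 and P10 of -3.79 (limma adjusted p = 0.0176, below 0 on 3 of 3 P3 arrays with a value). It had no value on array 2, so a dye effect does not cancel in its mean; with a dye term the difference was -3.71 (adjusted p = 0.026).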

How the results depend on the processing

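No gene passed at P3 with any array left out or in the other fits of the 4 arrays; the moderated ANOVA over 28 arrays gave 1 call (4833411C07Rik). The features at an unadjusted p below 0.05 numbered 591, and 966 with a dye term, 1254 and 1271 in the ANOVA over 28 arrays with and without moderation, and 1026 in the 24 other arrays, which add residual degrees of freedom. Leaving out 1 array gave 595 to 801, and 3465 to 4366 features of 1 sign on all 3 arrays left, against 1821 on 4. The three-copy mean of 0.19 was 0.15 to 0.22 without 1 array, 0.0901 in the 24 other arrays, 0.14 with all transcripts placed in the segment and 0.16 without the study's list of genes altered at every stage. Of the 54 named genes with a fit, 32 kept their sign in the 24 other arrays and 53 or 54 without 1 array.

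In the 24 other arrays the sign was reversed for 1700001O22Rik (0.19), 4930563E22Rik (0.24), Bpifb6 (-0.0364), Cdc6 (-0.88), Cyp7b1 (1.02), Dab1 (-1.22), Edn3 (-0.78), H2-Aa (-0.52), Junb (0.0770), Lrrk2 (-1.17), Marchf1 (-0.0725), Marchf8 (0.52), Nefh (-1.13), Olfr633 (1.68), Osgin1 (-0.52), Plin2 (-0.53), Ptf1a (0.36), Sema6a (-0.17), Slc6a19 (0.25), Sp8 (0.38), Styxl1 (-0.94) and Tusc1 (-0.63); the cause was not tested. Ptprn2 was -0.0220 by the probe with most values, and without 1 array Ncapg2 ran from -0.28 to 0.16 and Sp8 from -0.76 to 0.0810. The 1 call between ages became 0 with the arrays scaled to the same spread and in the ANOVA over 28 arrays, and was 0 to 1 without 1 array (0 without array 1). No paired analysis was possible because the labels carry no replicate numbers that tie 1 array to another; within an array, the ratio already sets 1 Ts1Cje mouse against 1 euploid mouse. Of the medians of gene lists under the alternatives, 458 stayed within the spread between arrays and 18 did not, among them interferon response (-0.02 without array 2, 0.02 in the 24 other arrays), granule neurons (0.03 with a value on all 4 arrays), microglia (0.05 with a value on all 4 arrays) and cell cycle (-0.13 without array 3). With 4 arrays, a ratio of 1.5 or less was not detectable for a typical gene.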
